A study of Mus musculus with 4 samples.

Results

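The circadian clock genes described here are 10 genes taken by name from the 54456 gene symbols of the deposited matrices, all 10 of which were found. The mammalian clock is a transcriptional loop. CLOCK or its paralog NPAS2 pairs with BMAL1 (gene Arntl) and switches on the Per and Cry genes, whose proteins return to the nucleus and repress that pair. A second loop runs through the REV-ERB receptors, which repress Arntl, Clock, Npas2 and Cry1, and the PAR bZIP factors DBP and TEF pass the rhythm on to output genes. In mouse liver Clock, Npas2 and Cry1 peak around the change from night to morning. The Per, REV-ERB and PAR bZIP genes peak from daytime to early night. Accordingly, 3 members form the morning arm (Clock, Npas2 and Cry1) and 7 form the evening arm (Per1, Per2, Per3, Nr1d1, Nr1d2, Dbp and Tef), names that carry the textbook liver phases and not a sampling time. The time of day at which each liver was taken is not given in the sources used here.

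Single-cell 3′ libraries (10x Genomics) were made from dissociated liver non-parenchymal cells of C57BL/6J mice aged 30 weeks. The 3 libraries analysed are HFD_EXE, HFD_sed and S, 1 library each. The labels name a high-fat diet and exercise as the interventions of the study. EXE and sed were read as the exercised and the sedentary arm under that diet, and S carries neither the diet nor the exercise tag in its name. A library of a group E, also without the diet tag, was not analysed here. No label says how many mice stand behind a library. Diet, exercise, animal, hour of collection, dissociation and library preparation therefore cannot be told apart, and no test between groups can be made.

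After filtering, 10172 cells of HFD_EXE, 10740 of HFD_sed and 10212 of S were kept, with median depths of 4917.5, 4179.5 and 6150 UMIs, a UMI (unique molecular identifier) standing for 1 captured transcript. Pairs of these 3 libraries shared between 30 and 43 cell barcodes. The cells were clustered without the clock genes, and 10 classes with at least 100 cells in each library were compared. In every class the UMIs of a gene were summed per library and given as CPM, the count per 1000000 UMIs of that class, with exact 95% Poisson intervals. A member was measured in a class where both libraries of a comparison together held at least 20 of its UMIs. It was called higher or lower where its CPM differed by at least 1.5-fold and the exact 95% interval of the ratio excluded equality. These intervals cover counting error alone. Clusters 0, 1 and 3, with the markers of liver sinusoidal endothelial cells (LSEC), are compared together by number as the endothelial clusters, because the leading genes of cluster 3 include Gpm6a of the mesothelial marker list and none of the LSEC list. HFD_EXE cells fell mostly in cluster 0, HFD_sed cells mostly in cluster 3 and S cells mostly in cluster 1. The other classes are cells like other vascular endothelium, Kupffer cells, monocytes, conventional dendritic cells (cDC), neutrophils, T cells, NK cells or ILC1, B cells and hepatocytes. Although the preparation was labelled as non-parenchymal, 479 cells of HFD_EXE, 113 of HFD_sed and 131 of S fell in the hepatocyte cluster, which passed all 12 hepatocyte markers.

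The start regions of 5 members whose levels moved apart, and which hold a motif searched for below, are given first. RefSeq windows of 250 bases before to 50 after each start (build GRCm38.p6, not the GRCm39 of the matrices) were found for 9 of the 10 members. Both strands were searched for the E-box CACGTG, bound by CLOCK and BMAL1, and for its variant CACGTT. The D-box TTATGTAA or TTACGTAA of DBP and TEF was also searched for. So was AGGTCA, a part of the sites bound by the ROR and REV-ERB receptors. CACGTG was present in 7.15% of the 32817 windows of all genes, CACGTT in 4.69%, the D-box in 1.05% and AGGTCA in 16.3%. Among the members, windows of Cry1, Per1 and Tef held CACGTG, and those of Cry1 and Nr1d1 held CACGTT. That of Per3 held 2 D-boxes, and those of Clock, Nr1d2 and Per1 held AGGTCA, found in 3 of 13 member windows. The windows of Dbp and Npas2 held none of these motifs. Below, capitals mark these motifs on either strand, and each window is written 5′ to 3′ along its own gene. The Cry1 window lies at chr10:85185005-85185304 on the minus strand, the Per1 window at chr11:69098699-69098998 on the plus strand, the Nr1d1 window at chr11:98775328-98775627 on the minus strand, the Nr1d2 window at chr14:18239057-18239356 on the minus strand, and one of the Tef windows at chr15:81811164-81811463 on the plus strand.
Cry1: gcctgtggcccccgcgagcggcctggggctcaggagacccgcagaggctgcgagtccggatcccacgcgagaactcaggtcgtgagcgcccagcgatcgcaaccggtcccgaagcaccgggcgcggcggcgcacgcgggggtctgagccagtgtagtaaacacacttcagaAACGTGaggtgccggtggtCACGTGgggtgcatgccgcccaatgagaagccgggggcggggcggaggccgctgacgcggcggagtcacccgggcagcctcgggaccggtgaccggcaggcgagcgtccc
Per1: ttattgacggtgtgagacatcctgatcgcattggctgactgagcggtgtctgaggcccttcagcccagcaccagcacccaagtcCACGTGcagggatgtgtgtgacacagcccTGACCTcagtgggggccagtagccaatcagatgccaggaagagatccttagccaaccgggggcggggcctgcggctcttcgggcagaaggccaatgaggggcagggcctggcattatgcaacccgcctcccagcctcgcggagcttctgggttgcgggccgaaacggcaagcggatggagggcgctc
Nr1d1: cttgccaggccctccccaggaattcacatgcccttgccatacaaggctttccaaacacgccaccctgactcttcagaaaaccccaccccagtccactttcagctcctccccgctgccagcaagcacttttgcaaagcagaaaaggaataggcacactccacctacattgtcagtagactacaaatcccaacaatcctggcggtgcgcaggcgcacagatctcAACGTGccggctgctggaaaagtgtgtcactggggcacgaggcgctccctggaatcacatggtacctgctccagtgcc
Nr1d2: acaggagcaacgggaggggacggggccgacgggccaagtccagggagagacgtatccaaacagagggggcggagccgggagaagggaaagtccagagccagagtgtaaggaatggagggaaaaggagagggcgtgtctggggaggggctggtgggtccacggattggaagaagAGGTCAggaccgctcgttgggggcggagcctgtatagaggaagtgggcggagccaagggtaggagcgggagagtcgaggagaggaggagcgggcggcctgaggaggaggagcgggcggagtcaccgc
Tef: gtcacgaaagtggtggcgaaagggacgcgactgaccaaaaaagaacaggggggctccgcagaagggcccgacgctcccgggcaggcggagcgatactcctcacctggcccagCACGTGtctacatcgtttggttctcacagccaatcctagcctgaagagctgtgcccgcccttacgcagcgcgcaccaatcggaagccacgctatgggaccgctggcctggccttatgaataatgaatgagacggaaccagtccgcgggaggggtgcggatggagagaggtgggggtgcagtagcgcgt
Cry1 and Per1 both hold the E-box in capitals, and their levels lay on opposite sides of S in both high-fat diet libraries in the endothelial classes and Kupffer cells, as described next.

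The evening arm did not move as a block between the libraries. Per1 was higher in both high-fat diet libraries than in S in most classes. So were Nr1d1 in both endothelial classes, and Nr1d2 in both endothelial classes, cDC, B cells and hepatocytes. Per2 was lower in both libraries in both endothelial classes, and Tef in the endothelial clusters and Kupffer cells. In the morning arm Cry1 was lower in both endothelial classes and Kupffer cells, and Clock of HFD_EXE stayed within 1.5-fold of S in 9 of 10 classes. In the endothelial clusters Per1 was 6.37-fold higher in HFD_EXE and 4.22-fold higher in HFD_sed than in S, and Cry1 was 4.41-fold lower in HFD_EXE and 4.50-fold lower in HFD_sed.

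Within the endothelial clusters 3 evening members were higher and 2 lower of 7 in HFD_EXE over S, where 9.08% and 8.86% of all genes were called higher and lower. For HFD_sed over S the counts were 3 higher and 4 lower of 7, beside 14.6% and 9.31% of all genes, and for HFD_EXE over HFD_sed 4 higher and 0 lower of 7, beside 8.39% and 12.2%. Over the single classes the share of all genes called ranged between 4.01% and 23.6% for higher and between 4.25% and 18.3% for lower.

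Counted over members and classes, HFD_EXE over S gave 22 evening-arm pairs higher and 6 lower of 52 measured pairs, against a background of 9.38% higher and 7.44% lower over all genes and classes. In the morning arm 2 pairs were higher and 7 lower of 22, and those 7 were all Cry1. HFD_sed over S gave 20 evening pairs higher and 11 lower of 56, where 10.8% of all measured genes were higher and 10.5% lower, and in the morning arm 2 higher and 3 lower of 21. HFD_EXE over HFD_sed gave 14 evening pairs higher and 3 lower of 55, where 9.41% of all genes were higher and 8.63% lower, and in the morning arm 1 higher and 4 lower of 21. Per1 supplied many of the higher pairs. Without it the evening pairs higher than in S were 12 of 42 measured for HFD_EXE and 11 of 46 for HFD_sed. Per1 gave no lower call over S, so the lower evening pairs stayed at 6 and 11. Where the median log2 ratio of all genes in a class was beyond 0.1, it was 0.24 and 0.27 in hepatocytes of HFD_EXE and HFD_sed over S, -0.13 and 0.12 in monocytes and T cells of HFD_sed over S, and 0.14 and -0.14 in neutrophils and T cells of HFD_EXE over HFD_sed. The 3 comparisons share libraries, so their counts are not independent of each other.

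**Figure D1:**
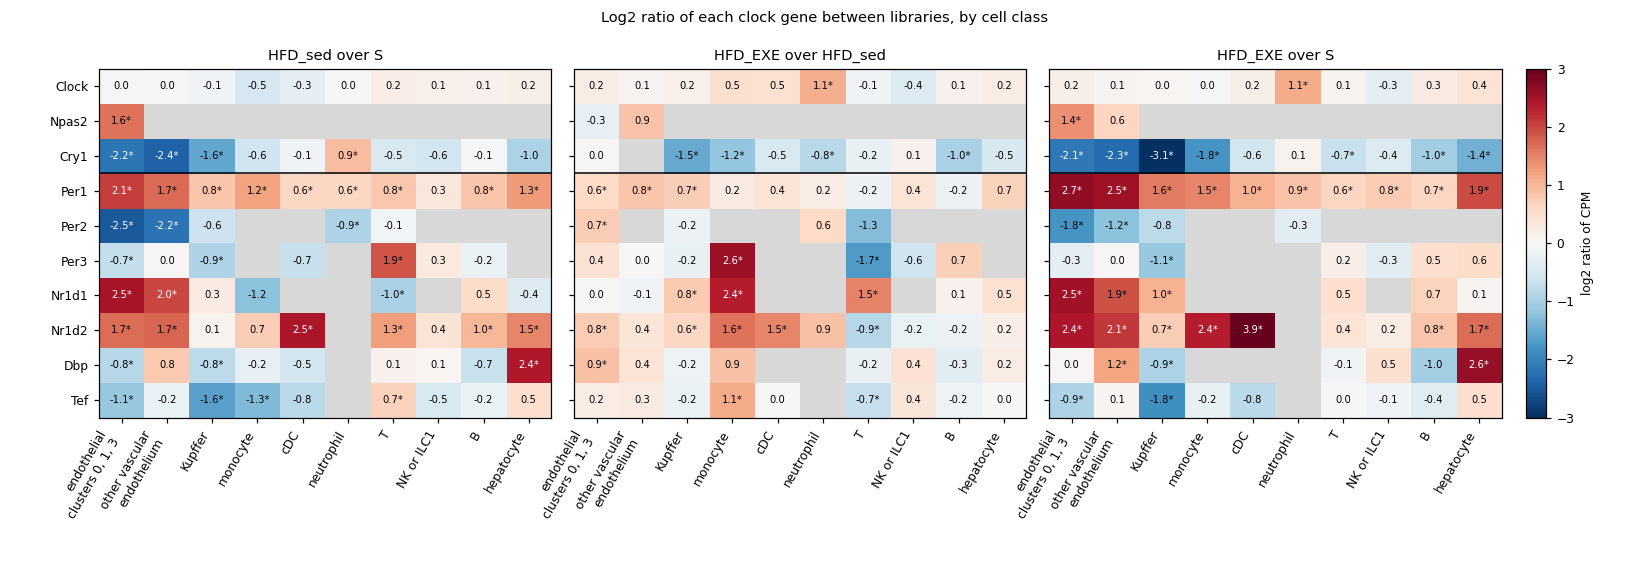
Log2 ratio of CPM for each member (rows, morning arm above the line) and cell class (columns) in the 3 comparisons. Red is higher and blue lower in the first-named library, an asterisk marks a called difference, and grey marks a pair with under 20 UMIs. The Per1 row is red in all 10 classes of HFD_EXE over S and the Cry1 row is blue in the endothelial, Kupffer and monocyte columns.

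Clock encodes the constant partner of BMAL1. The endothelial clusters had 132 CPM in HFD_EXE and 113 CPM in HFD_sed, against 116 CPM in S, and in Kupffer cells 56.3 CPM in HFD_EXE and 50.7 CPM in HFD_sed, against 54.4 CPM in S. These values lie close together in both classes. Its levels lay further apart between classes than between libraries, with both endothelial classes and hepatocytes above every immune class in each library by point value. Among the classes, a called difference was found in neutrophils alone. They had 23.5 CPM in HFD_EXE, against 11 CPM in HFD_sed and 11 CPM in S, with a log2 ratio of 1.10 (0.35 to 1.89) over S.

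Npas2, the paralog that can replace CLOCK, was sparse outside endothelium. Other vascular endothelium had 8.10 CPM in HFD_EXE and 4.45 CPM in HFD_sed, against 5.19 CPM in S, with overlapping intervals. The endothelial clusters had 1.72 CPM in HFD_EXE and 2.05 CPM in HFD_sed, against 0.666 CPM in S. The log2 ratios over S there were 1.37 (0.59 to 2.21) in HFD_EXE and 1.62 (0.75 to 2.53) in HFD_sed. No Npas2 UMI was found in neutrophils or B cells of any library, where a count of 0, taken to allow 3 counts, leaves room for up to 1.54 CPM in HFD_EXE neutrophils and 1.04 CPM in S B cells.

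Cry1 encodes a repressor of the CLOCK and BMAL1 pair. In the endothelial clusters it had 8.44 CPM (7.44 to 9.55) in HFD_EXE and 8.27 CPM (6.86 to 9.88) in HFD_sed, against 37.2 CPM (35.0 to 39.5) in S. Other vascular endothelium had 4.78 CPM in HFD_EXE and 4.45 CPM in HFD_sed, against 23.8 CPM in S. In both classes the 2 high-fat diet libraries lay together and well below S. Kupffer cells showed an ordered set of 3 levels with no overlap of intervals, 2.42 CPM in HFD_EXE and 6.88 CPM in HFD_sed, against 20.3 CPM in S, and there HFD_EXE was also below HFD_sed with a log2 ratio of -1.51 (-2.43 to -0.68). Across classes Cry1 was lower in HFD_EXE than in S in 7 of 10, with log2 ratios between -3.07 and 0.10. HFD_sed was below S in 3 of 10 and above it in neutrophils, with 41.6 CPM in HFD_sed, against 21.9 CPM in S. Of the neutrophils, 297 of 480 in HFD_sed fell in cluster 19, against 23 cells each of HFD_EXE and S, and the rest in cluster 7. Within cluster 7 Cry1 had 17.8 CPM in HFD_sed and 21.2 CPM in S, which was not called. cDC and NK cells or ILC1 gave no call in any comparison.

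Per1 encodes a repressor of the same pair and is also switched on by glucocorticoids and by acute stimuli. Its level in the endothelial clusters was 89.3 CPM (86.0 to 92.7) in HFD_EXE and 59.2 CPM (55.3 to 63.3) in HFD_sed, against 14.0 CPM (12.7 to 15.5) in S. In Kupffer cells it had 96.1 CPM in HFD_EXE and 57.7 CPM in HFD_sed, against 32.6 CPM in S. The 3 libraries held the same order in both classes with no overlap of intervals. Neutrophils carried the highest Per1 level of any class in each library, 262 CPM in HFD_EXE and 222 CPM in HFD_sed, against 144 CPM in S. Per1 was higher than in S in 10 of 10 classes of HFD_EXE, with a median log2 ratio of 1.25, and in 9 of 10 classes of HFD_sed, with a median of 0.83. HFD_EXE was above HFD_sed in 3 of 10 classes, the 2 endothelial classes and Kupffer cells, by log2 ratios of 0.59 to 0.83. T and B cells had slightly lower Per1 in HFD_EXE than in HFD_sed, and neither difference was called.

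Per2 encodes the partner repressor of PER1 and moved the other way. Its level in the endothelial clusters was 4.11 CPM (3.41 to 4.89) in HFD_EXE and 2.46 CPM (1.72 to 3.41) in HFD_sed, against 14.1 CPM (12.8 to 15.5) in S. Other vascular endothelium had 4.42 CPM in HFD_EXE and 2.23 CPM in HFD_sed, against 10.4 CPM in S. Per2 was thus lower in both high-fat diet libraries in the cells in which Per1 was higher, with log2 ratios over S of -1.78 in HFD_EXE and -2.52 in HFD_sed in the endothelial clusters. The number of Per2 UMIs per Per1 UMI in those clusters was 0.0460 in HFD_EXE and 0.0416 in HFD_sed, against 1.0 in S. Neutrophils held the highest Per2 level, 17.9 CPM in HFD_EXE and 11.8 CPM in HFD_sed, against 22.4 CPM in S, where HFD_sed was called lower. Within neutrophil cluster 7 alone it had 23.7 CPM in HFD_sed and 22.2 CPM in S, so the call was not found there. Per2 was measured in 4 or 5 classes of each comparison.

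Per3 encodes a weaker repressor of the family. The endothelial clusters had 9.47 CPM in HFD_EXE and 7.04 CPM in HFD_sed, against 11.5 CPM in S, with HFD_sed called lower than S at a log2 ratio of -0.70 (-1.04 to -0.38). Other vascular endothelium had 13.2 CPM in HFD_EXE and 13.4 CPM in HFD_sed, against 13 CPM in S, with overlapping intervals. Kupffer cells had 2.58 CPM in HFD_EXE and 2.99 CPM in HFD_sed, against 5.70 CPM in S, and both were called lower than S. In monocytes the values were 7.31 CPM in HFD_EXE and 1.23 CPM in HFD_sed, against 2.24 CPM in S, resting on 10, 13 and 4 UMIs, and HFD_EXE was called higher than HFD_sed. T cells had the reverse order of these 2 libraries, with 3.86 CPM in HFD_EXE and 12.5 CPM in HFD_sed, against 3.37 CPM in S. Most HFD_sed T cells, 1671 of 2637, fell in cluster 6, a Cd8a and Gzmk cluster that held 83 cells of HFD_EXE and 61 of S. Within cluster 12, the T cluster led by Tnfrsf4 and Ctla4, Per3 had 6.91 CPM in HFD_sed and 7.12 CPM in S, so the T-cell call was not found there.

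Nr1d1 encodes the nuclear receptor REV-ERB alpha, the repressor of Arntl. In the endothelial clusters it had 34.8 CPM (32.7 to 37.0) in HFD_EXE and 34.1 CPM (31.2 to 37.2) in HFD_sed, against 6.1 CPM (5.23 to 7.08) in S. Other vascular endothelium had 79.1 CPM in HFD_EXE and 85.3 CPM in HFD_sed, against 21.2 CPM in S. Both endothelial classes thus had a high level in both high-fat diet libraries and a low one in S, and HFD_EXE over HFD_sed gave log2 ratios of 0.03 (-0.13 to 0.19) and -0.11 (-0.44 to 0.23). Hepatocytes did not share this, with 84.5 CPM in HFD_EXE and 61.3 CPM in HFD_sed, against 80.2 CPM in S, and overlapping intervals. Kupffer cells had 12.6 CPM in HFD_EXE and 7.32 CPM in HFD_sed, against 6.15 CPM in S, so that HFD_EXE was called higher than each. In T cells HFD_sed was lowest, with 10.7 CPM in HFD_EXE and 3.85 CPM in HFD_sed, against 7.59 CPM in S, and HFD_sed was also called lower than S within T cluster 12. The Nr1d1 and Thra gene models overlap by 1075 bases on opposite strands, and the strand setting of the counting is not given in the sources used here. Thra had 103 CPM in HFD_EXE and 181 CPM in HFD_sed, against 112 CPM in S in the endothelial clusters, above S in HFD_sed, as Nr1d1 was, but not in HFD_EXE.

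Nr1d2 encodes the second receptor, REV-ERB beta. Its level in the endothelial clusters was 66.0 CPM (63.1 to 68.9) in HFD_EXE and 38.8 CPM (35.6 to 42.1) in HFD_sed, against 12.2 CPM (11 to 13.6) in S. Hepatocytes had 73.8 CPM in HFD_EXE and 64.0 CPM in HFD_sed, against 23.3 CPM in S. In both, S was below the 2 other libraries with no overlap of intervals. Monocytes had 31.4 CPM in HFD_EXE and 10.2 CPM in HFD_sed, against 6.15 CPM in S, and cDC had 16.2 CPM in HFD_EXE and 5.85 CPM in HFD_sed, against 1.07 CPM in S. The S level in cDC rests on 2 UMIs, so the cDC ratio over S has a wide interval. Nr1d2 was higher than in S in 7 of 9 measured classes of HFD_EXE and 6 of 9 of HFD_sed. Monocytes of HFD_sed came mostly from cluster 8, 1102 of 1275 cells, against 92 of 150 in HFD_EXE, and in cluster 18 Nr1d2 had 35.9 CPM in HFD_sed and 5.02 CPM in S. HFD_EXE was above HFD_sed in 4 of 10 classes and below it in T cells, which had 32.6 CPM in HFD_EXE and 59.0 CPM in HFD_sed, against 24.7 CPM in S. Within T cluster 9 alone, with 249 HFD_EXE and 346 HFD_sed cells, that difference was -0.23 (-0.79 to 0.31) on the log2 scale and was not called.

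Dbp encodes the PAR bZIP factor that is a textbook direct target of CLOCK and BMAL1. Hepatocytes had 53.0 CPM (44.2 to 63.2) in HFD_EXE and 45.3 CPM (26.4 to 72.6) in HFD_sed, against 8.63 CPM (4.14 to 15.9) in S. The direction differed by class. Other vascular endothelium had 20.6 CPM in HFD_EXE and 15.6 CPM in HFD_sed, against 9.09 CPM in S, with a call for HFD_EXE. Hepatocytes were shallow and few, with median depths of 2700 UMIs in HFD_EXE and 1284 UMIs in HFD_sed, against 5561 UMIs in S. The median log2 ratio of all genes in hepatocytes was 0.24 for HFD_EXE and 0.27 for HFD_sed over S, where 23.6% and 18.1% of genes were called higher, beside 2.62 (1.69 to 3.72) and 2.39 (1.18 to 3.68) for Dbp. Dbp in the endothelial clusters had 12.3 CPM in HFD_EXE and 6.63 CPM in HFD_sed, against 11.9 CPM in S, where HFD_sed was the low library, and Kupffer cells had 3.87 CPM in HFD_EXE and 4.33 CPM in HFD_sed, against 7.45 CPM in S. The Dbp model overlaps Sphk2 by 737 bases on the opposite strand. Sphk2 had 30.1 CPM in HFD_EXE and 45.3 CPM in HFD_sed, against 63.0 CPM in S in hepatocytes, the opposite order to Dbp.

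Tef encodes a related factor of the same family. Kupffer cells had 10.2 CPM (7.81 to 13) in HFD_EXE and 11.8 CPM (9.63 to 14.2) in HFD_sed, against 36.2 CPM (33.7 to 38.8) in S. The endothelial clusters had 13.8 CPM in HFD_EXE and 11.8 CPM in HFD_sed, against 26.1 CPM in S. In both classes S was the high library. Nearly all S Kupffer cells, 1894 of 2020, fell in cluster 5, while 1115 of 1133 HFD_EXE and 1181 of 1232 HFD_sed cells fell in cluster 2, and the 126 S cells of cluster 2 had 24.6 CPM. Other vascular endothelium had 25.0 CPM in HFD_EXE and 20.8 CPM in HFD_sed, against 23.8 CPM in S, with overlapping intervals, so the Tef difference of the endothelial clusters was not seen there. In monocytes HFD_sed was the low library, at 12.4 CPM in HFD_EXE and 5.78 CPM in HFD_sed, against 14.5 CPM in S, while within monocyte cluster 18 the log2 ratio of HFD_sed over S was -0.51 (-1.57 to 0.52) and not called. The gene models of Per3 within Camta1 on the same strand and of Tef beside an antisense model add a further uncertainty to the counts of those members.

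**Figure D2:**
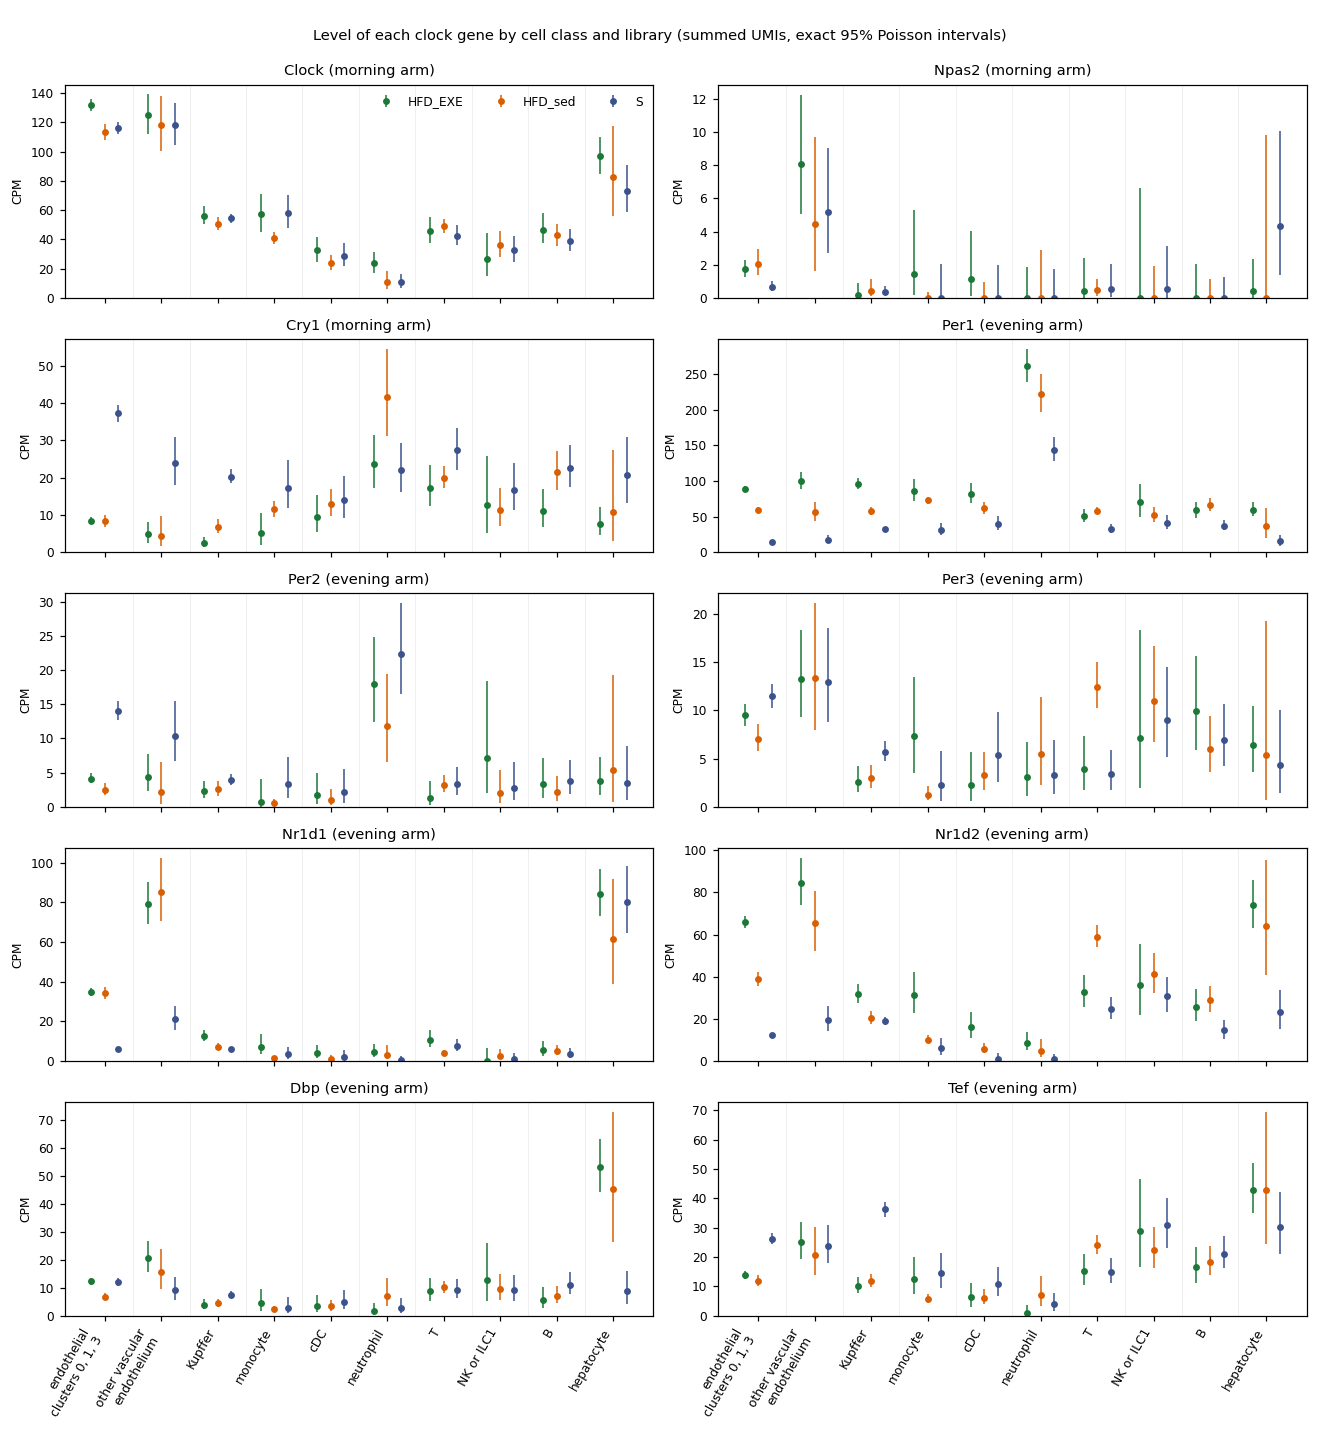
CPM of each member (one panel each, linear axis from 0) in the 10 cell classes, with HFD_EXE, HFD_sed and S as points from left to right and exact 95% Poisson intervals as bars. In the endothelial clusters S is the lowest library for Per1, Nr1d1 and Nr1d2 and the highest for Cry1, Per2 and Tef, and Clock lies between 113 and 132 CPM.

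The ratio of evening-arm to morning-arm UMIs within a class does not depend on the class total. It was 1.62 (1.56 to 1.68) in HFD_EXE and 1.29 (1.22 to 1.38) in HFD_sed, against 0.623 (0.594 to 0.653) in S, in the endothelial clusters. Other vascular endothelium had 2.37 in HFD_EXE and 2.04 in HFD_sed, against 0.776 in S. Monocytes had 2.36 in HFD_EXE and 1.80 in HFD_sed, against 0.844 in S. With Per1 counted, the morning arm outweighed the evening arm by point value in S alone in these 3 classes. The monocyte interval of S, 0.652 to 1.09, included equality. In the endothelial clusters of HFD_EXE, 3976 of the 4283 morning UMIs were of Clock. In Kupffer cells the ratio was 2.71 in HFD_EXE and 1.85 in HFD_sed, against 1.48 in S, and in T cells 1.95 in HFD_EXE and 2.47 in HFD_sed, against 1.37 in S. Neutrophils had overlapping intervals, with 6.34 in HFD_EXE and 4.97 in HFD_sed, against 5.41 in S. Without Per1 the endothelial clusters kept the order, with 0.990 in HFD_EXE and 0.815 in HFD_sed, against 0.532 in S. All of these lay below equality by point value. Without Per1, Kupffer cells did not keep theirs, with 1.08 in HFD_EXE and 0.855 in HFD_sed, against 1.05 in S. Monocytes without Per1 had 1.0 in HFD_EXE and 0.412 in HFD_sed, against 0.430 in S.

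**Figure D3:**
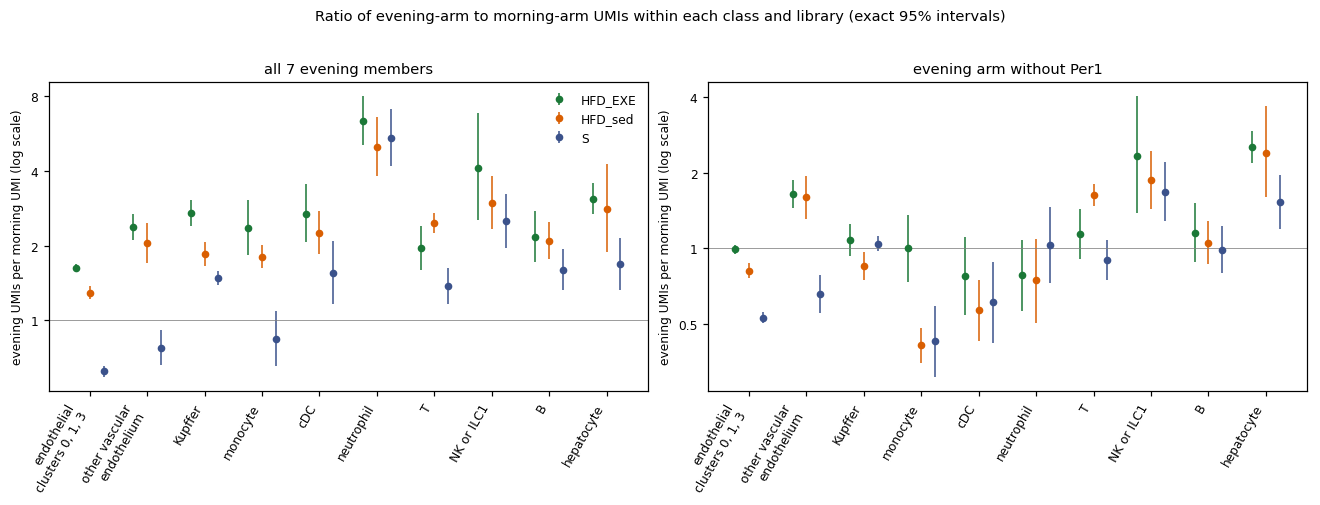
UMIs of the 7 evening members per UMI of the 3 morning members (log axis) in each class, with HFD_EXE, HFD_sed and S from left to right and exact 95% intervals, for all evening members on the left and without Per1 on the right. The line marks equal UMIs, and S lies below it in both endothelial classes in both panels.

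Since libraries fell in different clusters, members were also compared within single clusters holding at least 100 cells of both libraries. In cluster 1, with 393 HFD_EXE and 3741 S cells, Per1 had 82.8 CPM in HFD_EXE and 13.9 CPM in S, Nr1d1 48.7 CPM in HFD_EXE and 6.1 CPM in S, and Cry1 7.79 CPM in HFD_EXE and 37.1 CPM in S. The log2 ratios were 2.57 (2.22 to 2.92) for Per1, 3.0 (2.52 to 3.47) for Nr1d1, 2.34 (1.92 to 2.73) for Nr1d2 and -2.25 (-3.47 to -1.27) for Cry1. HFD_EXE cells sharing a cluster with S cells thus held Per1, Nr1d1, Nr1d2 and Cry1 at levels near those of their own library. The few cells in clusters mostly of another library were mixed. The 46 S cells of cluster 0 had Per1 at 14.3 CPM and Cry1 at 53.8 CPM, near or above the S cells of cluster 1 at 13.9 and 37.1 CPM. The 25 S cells of cluster 3 had Cry1 at 26.6 CPM and Nr1d1 at 8.86 CPM, but Nr1d2 at 35.4 CPM (8 UMIs) and Per1 at 31.0 CPM (7 UMIs), against 39.1 and 58.6 CPM in the HFD_sed cells of that cluster and 11.96 and 13.9 CPM in the S cells of cluster 1. The 86 HFD_sed cells of cluster 1 had Cry1 at 8.45 CPM (2 UMIs), near HFD_sed, and Nr1d1 at 4.23 CPM (1 UMI), near S. In cluster 3, which held 163 HFD_EXE and 2214 HFD_sed cells, Per1 had 75.6 CPM in HFD_EXE and 58.6 CPM in HFD_sed, with a log2 ratio of 0.37 (0.03 to 0.69) that was not called. Cry1 had 15.1 CPM in HFD_EXE and 8.39 CPM in HFD_sed in the same cluster, a log2 ratio of 0.85 (0.02 to 1.59) that was called higher, whereas over the endothelial clusters together the Cry1 ratio was 0.03 (-0.29 to 0.35). In cluster 0 Nr1d2 was called higher in HFD_EXE than in HFD_sed, at a log2 ratio of 0.84 (0.28 to 1.46). For Kupffer cells, cluster 2 held 1115 HFD_EXE, 1181 HFD_sed and 126 S cells. There Cry1 had 2.47 CPM in HFD_EXE and 6.87 CPM in HFD_sed, against 20.8 CPM in S, and Tef 10.2 CPM in HFD_EXE and 11.8 CPM in HFD_sed, against 24.6 CPM in S. None of clusters 0, 1 and 3 held 100 cells of both HFD_sed and S. The HFD_sed over S ratios of the endothelial clusters were therefore not compared within a single cluster. Over all clusters with enough cells Per1 was called higher than in S in 9 of 9 for HFD_EXE and 9 of 13 for HFD_sed, and Nr1d2 in 7 of 8 and 9 of 12. Cry1 was called lower in 5 of 9 for HFD_EXE and 3 of 12 for HFD_sed. Clock was called higher in 1 of 9 for HFD_EXE and 2 of 13 for HFD_sed. The share of all genes called within single clusters is not given here, so these counts have no background beside them.

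**Figure D4:**
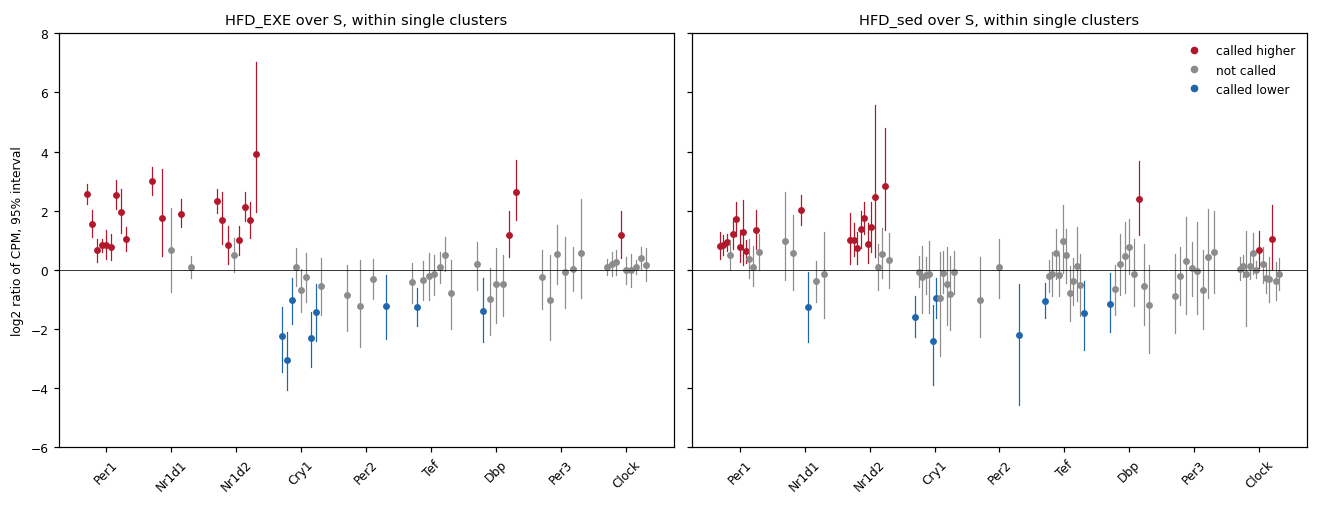
Log2 ratio over S of 9 members within each single cluster that held at least 100 cells of both libraries, HFD_EXE on the left and HFD_sed on the right, with exact 95% intervals. Every Per1 point of HFD_EXE over S is called higher, while the Clock points of HFD_EXE over S lie near 0 apart from 1 called cluster.

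The share of cells with a UMI was compared after each cell was thinned to 2000 UMIs, leaving out shallower cells, 846 of HFD_EXE, 246 of HFD_sed and 311 of S in the endothelial clusters. Cry1 was found in 1.10% of those cells in HFD_EXE and 1.43% in HFD_sed, against 6.48% in S, and Nr1d1 in 6.90% in HFD_EXE and 6.79% in HFD_sed, against 1.17% in S. Before thinning the shares were 4.11% in HFD_EXE and 4.39% in HFD_sed, against 21.4% in S for Cry1, and 15.5% in HFD_EXE and 15.4% in HFD_sed, against 4.07% in S for Nr1d1. No class is known to lack these genes. B cells, where Nr1d1 is low, had thinned shares of 1.30% in HFD_EXE and 0.558% in HFD_sed, against 0.60% in S. The Nr1d1 share of the S endothelial clusters, 1.17%, was nearest that of HFD_EXE B cells and above that of S B cells. These B-cell shares rest on 6 cells in HFD_EXE, 5 in HFD_sed and 4 in S.

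Over the 30 points of class and library, with each class centred on its own mean, Per1 went with Nr1d2 at a Pearson r of 0.85 and against Cry1 at -0.85, and Dbp went with Tef at 0.62. Per2 and Npas2 were too sparse for such a value. These points come from 3 libraries and share their depth and handling, so the values describe this set alone. By the same measure, among 7281 genes the 5 most like the mean of the evening arm were Zbtb38 (0.85), Chtop (0.81), Nedd9 (0.79), Phc2 (0.79) and Riok3 (0.79). The 5 most opposed were Ssr4 (-0.78), Polr1c (-0.73), Cox4i1 (-0.73), Ndufv3 (-0.73) and Nudt22 (-0.72).

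Of the other clock factors, Arntl, the gene of BMAL1, had 41.8 CPM in HFD_EXE and 42.1 CPM in HFD_sed, against 51.0 CPM in S in the endothelial clusters. It was called in no class of HFD_EXE over S or over HFD_sed, and lower in 1 of 9 classes of HFD_sed over S. Cry2, the second cryptochrome, was lower than in S in 2 of 8 classes of HFD_EXE and 3 of 9 of HFD_sed, with 3.11 CPM in HFD_EXE and 2.39 CPM in HFD_sed, against 9.19 CPM in S in the endothelial clusters. Bhlhe40, a repressor of the loop that also responds to acute stimuli, was higher in 8 of 10 classes of HFD_sed over S and lower in 9 of 10 of HFD_EXE over HFD_sed. Nfil3, a repressor at D-boxes, was higher than in S in 4 of 9 classes of HFD_EXE and 3 of 8 of HFD_sed. Rora, an activator at the REV-ERB sites, was higher in 3 of 9 classes of HFD_EXE over S and in 4 of 10 of HFD_sed over S, where 1 class was lower. Hlf, the third PAR bZIP factor, was called in no class of HFD_EXE over S. Ciart was lower in 3 of 6 classes of HFD_EXE over HFD_sed, and Bhlhe41 was lower in 2 of 4 of HFD_EXE over S. Arntl2 was measured in no class. The list had, in the endothelial clusters, 1 gene higher and 2 lower of 8 in HFD_EXE over S, with a median log2 ratio of -0.33 beside 0.01 for all genes. The clock kinases and ubiquitin ligases, such as Csnk1d, had 0 of 9 measured genes called there in HFD_EXE over S and over HFD_sed, and 1 higher in HFD_sed over S. In hepatocytes 5 of 9 were higher in HFD_EXE than in S, with a median of 0.86 beside 0.24 for all genes.

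Other gene lists moved with the libraries, and their part in the clock values was not tested. Glucocorticoid targets, a list that includes Per1, had more genes higher than lower in HFD_EXE in each class, against HFD_sed and against S. In the endothelial clusters 10 of 12 were higher in HFD_EXE than in HFD_sed and 10 of 12 higher than in S, with median log2 ratios of 1.31 and 1.55. Fkbp5 and Klf9, hormone-induced genes, were higher in HFD_EXE than in HFD_sed in 10 of 10 classes, and Klf9, also on the list of widely cycling clock outputs, had 956 CPM in HFD_EXE and 280 CPM in HFD_sed, against 326 CPM in S in the endothelial clusters. For HFD_sed over S in those clusters, 6 of the 12 glucocorticoid targets were higher and 3 lower, with a median of 0.63 beside 0.08 for all genes. Tsc22d3, Ddit4 and Cdkn1a were higher in 9, 10 and 8 of 10 classes of HFD_EXE over S and in 6 of 10 each of HFD_sed over S, whereas Mt1 and Mt2 were lower in 9 and 8 of 10 of HFD_sed over S. In the endothelial clusters 11 of 12 immediate early genes were higher in HFD_sed than in S, with a median of 1.73, and 10 of 12 were lower in HFD_EXE than in HFD_sed, with a median of -1.06. This was not so in every class, since Kupffer cells had 1 of 12 higher in HFD_sed than in S, with a median of 0.03, and neutrophils had 2 higher and 3 lower in HFD_EXE than in HFD_sed, with a median of 0.06. Set against S in the endothelial clusters, HFD_EXE had 7 of these 12 called higher and 0 called lower, the list median being 0.68. The list and Per1 thus both lay above S in each high-fat diet library. HFD_sed was the higher of these 2 libraries for the list, and HFD_EXE for Per1. Fos, on this list, had 465 CPM in HFD_EXE and 1035 CPM in HFD_sed, against 499 CPM in S in those clusters. By point value Fos was above S in HFD_sed alone. Heat shock genes were higher in HFD_sed than in S for 5 of 10 in those clusters, and Cirbp, a cold-inducible RNA-binding gene, was lower in HFD_sed than in S in 7 of 10 classes and higher in HFD_EXE than in HFD_sed in 7 of 10. The widely cycling clock outputs had 4 genes higher and 3 lower of 10 in HFD_EXE over S in the endothelial clusters. Of these outputs, Tspan4 was lower than in S in 6 of 10 classes of each high-fat diet library. Nampt was higher than in S in 7 of 10 classes of HFD_sed and 3 of 10 of HFD_EXE, and Por lower in 5 and 3 of 10.

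**Figure D5:**
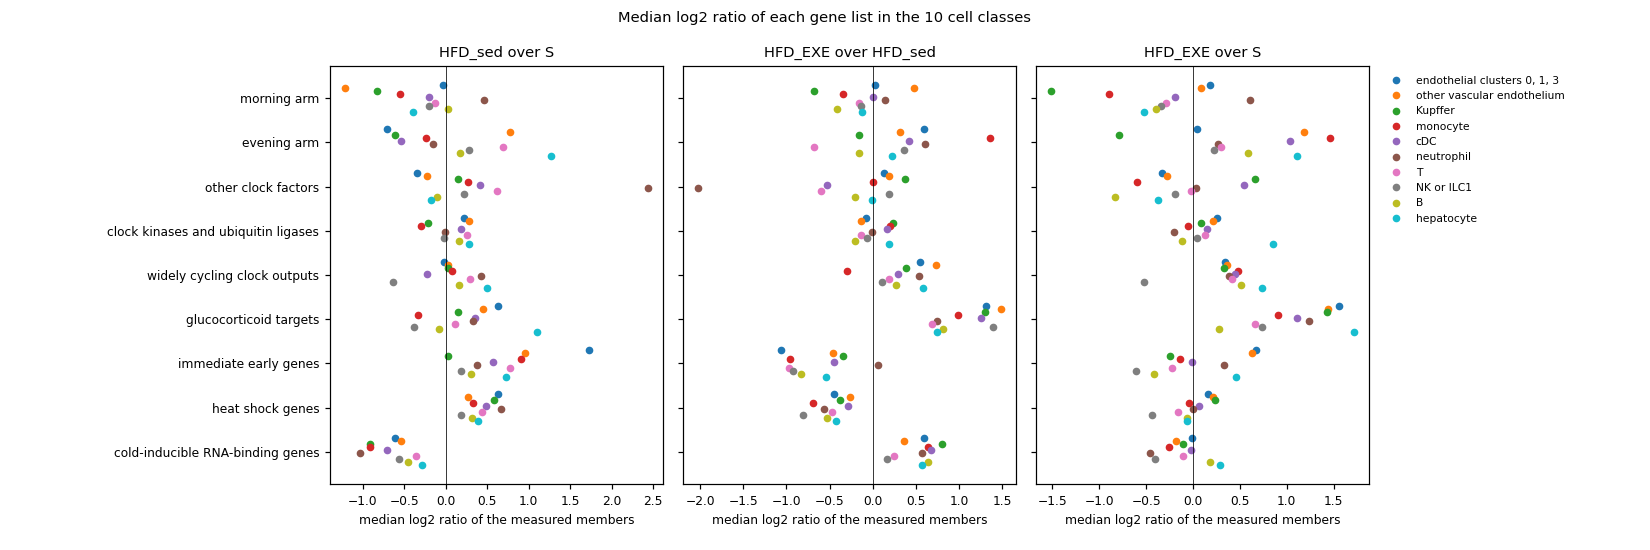
Median log2 ratio of the measured members of each gene list (rows) in the 10 classes (coloured points) for the 3 comparisons. Glucocorticoid targets lie to the right of 0 in all classes of HFD_EXE over HFD_sed and of HFD_EXE over S, and immediate early genes lie to the right in all classes of HFD_sed over S, while the 2 clock arms lie on both sides.

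Transcripts of hepatocytes and red blood cells found in other classes also differed between libraries. The 12 hepatocyte transcripts summed to 866 CPM in HFD_EXE and 780 CPM in HFD_sed, against 1399 CPM in S, in the endothelial clusters. In Kupffer cells they summed to 949 CPM in HFD_EXE and 436 CPM in HFD_sed, against 1174 CPM in S. S was thus highest in both. By point value Cry1, Per2, Per3 and Tef were also highest in S in these 2 classes, while Nr1d1, Nr1d2 and Per1 were lowest. With hepatocyte RNA subtracted, every count of member and class pairs stayed within 1.5 times of the first. In these 2 classes 0 of the called log2 ratios reversed. The part of hepatocyte RNA in these values was not tested in any other way. Within hepatocytes themselves the same transcripts summed to 45581 CPM in HFD_EXE and 47260 CPM in HFD_sed, against 74458 CPM in S. The 5 erythroid transcripts summed to between 104 and 5277 CPM in HFD_EXE classes and between 48.6 and 1640 CPM in HFD_sed classes, against between 27.3 and 83.4 CPM in S classes.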

How the data were processed

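Per the labels' protocols, livers were dissociated enzymatically and 10x Genomics 3′ libraries were prepared from 5000 to 6000 captured cells, fewer than the 10172 to 10740 kept per library after the filters below. The authors deposited raw UMI counts per gene and barcode, made with Cell Ranger 6.1.2 on GRCm39 per the submitters' processing notes. The strand and intron settings of the counting were not stated in the sources used here. Cells with at least 500 UMIs, 300 genes and under 15% mitochondrial UMIs were kept. Scrublet removed 295, 328 and 403 doublets in HFD_EXE, HFD_sed and S, at 1 threshold of 0.219 (the mean of the automatic ones of HFD_sed and S) because its own marked 0 cells of HFD_EXE.

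Cells were clustered with Scanpy 1.11.5 and leidenalg 0.10.2 (2000 variable genes without the clock lists, 30 components, 15 neighbours, resolution 1.0) into 26 clusters and named from marker lists of 21 types. Per class and library, UMI counts were summed. SciPy 1.17.1 gave exact Poisson and conditional binomial intervals. The calling code was run on simulated Poisson counts, which hold no variation between libraries and so cannot show how calls behave under it. The members and lists were chosen with earlier results of these data known. The text names all members, the other clock factors (some list genes are not reported here), the genes most and least like the evening arm, and, of the list genes called one way in at least 5 of 10 classes, those whose values stand beside a clock result. Promoter windows came from RefSeq, and gene overlaps from the GENCODE annotation of GRCm38. Alternatives covered UMI and mitochondrial filters, doublets, resolution, ratio, UMI minimum, scaling, low-UMI clusters, subtraction of hepatocyte RNA and the evening arm without Per1.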

Additional observations from a re-analysis of the deposited data

Results flagged for a closer look

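For 9 combinations of a member and a comparison, the member was called in opposite directions in different cell classes. With 1 library per group the differences between classes were not tested. Each value below is a log2 ratio of CPM. HFD_sed T cells, monocytes and neutrophils fell mostly in clusters 6, 8 and 19, in other proportions than those of the other libraries, and values within single clusters are given where both libraries had at least 100 cells.

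For HFD_sed over S, Cry1 was -2.17 in the endothelial clusters, -2.42 in other vascular endothelium and -1.56 in Kupffer cells, but 0.93 in neutrophils, and -0.26 and not called within neutrophil cluster 7 alone. Per3 was -0.70 in the endothelial clusters and -0.93 in Kupffer cells, but 1.89 in T cells, and -0.04 and not called within T cluster 12. Nr1d1 was 2.48 in the endothelial clusters and 2.01 in other vascular endothelium, but -0.98 in T cells and -1.27 within T cluster 12, called in both. Dbp was -0.85 in the endothelial clusters and -0.78 in Kupffer cells, but 2.39 in hepatocytes. Tef was -1.14 in the endothelial clusters, -1.62 in Kupffer cells and -1.33 in monocytes, but 0.70 in T cells. Within single clusters Tef was -0.51 in monocyte cluster 18, -0.14 in T cluster 9 and 0.96 in T cluster 12, none of them called.

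For HFD_EXE over HFD_sed, Nr1d2 was 0.77 in the endothelial clusters, 0.63 in Kupffer cells, 1.62 in monocytes and 1.47 in cDC, but -0.86 in T cells. Within T cluster 9 Nr1d2 was -0.23 and Tef -0.07, neither called. Per3 was 2.57 in monocytes and -1.69 in T cells, and Tef was 1.10 in monocytes and -0.68 in T cells. For HFD_EXE over S, Dbp was 1.18 in other vascular endothelium and 2.62 in hepatocytes, but -0.95 in Kupffer cells.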

How the results depend on the processing

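No paired analysis was possible because each group has 1 library and the groups share no replicate number. Of 150 recomputed counts of member and class pairs, 130 stayed within 1.5 times and 20 moved. Log2 ratios were recomputed in the endothelial clusters, Kupffer cells, T cells and B cells alone. Of those 852 ratios 850 stayed within their first interval, and 0 of the called ones reversed. Log2 ratios of the other classes were not recomputed.

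With no UMI minimum, HFD_EXE over HFD_sed gave 5 of 70 evening pairs lower and 2 of 27 morning pairs higher. With a minimum of 50, HFD_sed over S gave 1 of 18 morning pairs higher. At a ratio of 2, HFD_EXE over HFD_sed gave 6 evening pairs higher and 1 lower of 55, and 2 of 21 morning pairs lower. At that ratio HFD_sed over S gave 5 of 56 evening pairs lower and 1 of 21 morning pairs higher. With doublets kept, HFD_EXE over S gave 1 of 22 morning pairs higher. Without Per1, 12 of 42 evening pairs were higher for HFD_EXE over S and 11 of 46 for HFD_sed over S.

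Within 8 single clusters with at least 100 cells of each library in place of the classes, an alternative chosen after seeing the data, fewer pairs were compared. HFD_EXE over HFD_sed then gave 5 evening pairs higher and 0 lower of 38 measured, and 0 morning pairs higher and 2 lower of 16. HFD_EXE over S gave 3 evening pairs lower of 40, and 1 morning pair higher and 4 lower of 17. HFD_sed over S gave 3 evening pairs lower of 41 and 0 morning pairs higher of 16. The share of all genes called in these clusters is not given here. At resolution 0.5 no cDC class, and at 2.0 no hepatocyte class, was compared.

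With 1 library per group the intervals cover counting error alone, and Npas2 and Per2 were too sparse to be read in most classes.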

Other observations

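Cluster 10 was left out of the classes because its leading genes, among them Klrb1c, Il2rb, Cxcr6, Il4 and Zbtb16, mixed markers of T cells with those of NK cells. It held 384 cells of HFD_EXE, 142 of HFD_sed and 411 of S. Per1 had 58.9 CPM in HFD_EXE and 80.5 CPM in HFD_sed, against 34.7 CPM in S, and Nr1d2 had 46.8 CPM in HFD_EXE and 60.8 CPM in HFD_sed, against 23.6 CPM in S. Both members were called higher than in S in each high-fat diet library, with HFD_sed the highest by point value, as in T cells. In cells like plasmacytoid dendritic cells, 107 in each of HFD_EXE and HFD_sed, Nr1d2 had 21.8 CPM in HFD_EXE and 3.52 CPM in HFD_sed, a log2 ratio of 2.63 (0.89 to 5.02).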
